A study of Mus musculus with 8 samples.

Results

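The 7 genes *Nrgn*, *Grp*, *Jaml*, *Erv3*, *Tmem132e*, *Pigz* and *Sult1a1* were chosen from 24059 gene symbols because their mRNA was lower after *Zc3h12a* RNP than after scrambled RNP in all 4 replicate-numbered pairs of bone marrow–derived mast cell (BMMC) samples. BMMCs are mast cells obtained by culture of marrow cells. Total bone marrow of C57BL/6 mice was cultured in IL-3 for at least 4 weeks, and the cells were transfected with Cas9-gRNA ribonucleoproteins (RNPs) and kept in culture, resting, for 1 wk. One group received a non-targeting guide (scrambled, genotype labeled *Zc3h12a* WT), and the other received guides to *Zc3h12a* (labeled *Zc3h12a* KO), the gene of the RNA-degrading protein Regnase-1. All 8 samples were C57BL/6 BMMCs that had gone through the same culture and transfection, with 4 samples per RNP. They were bulk RNA from transfected populations, not from selected clones, so fewer cells of a type and less RNA per cell cannot be told apart. The cells came from 4 mice, and the labels number the samples of each RNP 1 to 4 without saying that a number marks a mouse. All 7 genes passed the filter on low counts, among 14934 genes tested.

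The 7 genes do not form a known pathway. *Grp* encodes gastrin-releasing peptide, a secreted neuropeptide of the bombesin-like family, and *Nrgn* encodes neurogranin, a small protein best known from the postsynaptic side of neurons, which holds calmodulin in its calcium-free state and is a substrate of protein kinase C (PKC). *Jaml* encodes an immunoglobulin-domain adhesion protein of leukocytes that binds the coxsackievirus and adenovirus receptor Cxadr on other cells, and *Tmem132e* encodes a membrane protein linked to hearing. *Pigz* is an enzyme that adds the fourth mannose to the glycosylphosphatidylinositol (GPI) anchor, the lipid tail by which many surface proteins are held on the membrane, and *Sult1a1* is a cytosolic enzyme that transfers sulfate from the donor PAPS to phenols. *Erv3* is a gene of retroviral origin. Regnase-1 is an endonuclease known to cleave cytokine and other immune mRNAs at stem-loops.

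The deposited counts added up to 19610240 to 33986762 per scrambled sample and 23712029 to 28564062 per *Zc3h12a* RNP sample. Levels are given as CPM, counts scaled to a common normalized library size. The targeted gene *Zc3h12a* was at 34.8 ± 6.65 CPM in scrambled and 33.2 ± 5.91 CPM after *Zc3h12a* RNP (mean ± SD with n = 4), and it was lower in 2 of 4 pairs, so its mRNA level is no check of the labels. All 14 mast cell markers searched for were counted, and their summed level was 56816 to 66535 CPM in scrambled and 53976 to 57501 CPM in *Zc3h12a* RNP samples. This sum was lower in 3 of 4 pairs, 50.5% of it came from *Cpa3*, and its part in the differences of the 7 genes was not tested. Across the 14934 genes, 0 were called lower (0%) and 0 higher (0%) with *Zc3h12a* RNP by edgeR's quasi-likelihood test, where a call needed an adjusted p of 0.05 or less and a log2 fold change of more than 0.5 in size. At an unadjusted p at or under 0.05, 93 were lower and 37 higher by more than 0.5, and DESeq2 called 50 lower and 8 higher.

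Start regions are shown for the 4 genes whose RefSeq start site lies within 23 bases of a start in the GENCODE annotation of GRCm39, to show how unlike they are in base composition. RefSeq's table of promoter windows, made on GRCm38.p6, held 1 window for 6 of the 7 genes, with 250 bases before and 50 bases after the start, and each was found once, letter for letter, in GRCm39, which gives the coordinates. The sequences run 5′ to 3′ along the gene's own strand, and capitals mark letters of the motifs described after them. The *Nrgn* window is chr9:37463992-37464291 (minus strand), the *Jaml* window chr9:44990231-44990530 (plus strand), the *Erv3* window chr2:131701618-131701917 (minus strand) and the *Sult1a1* window chr7:126275541-126275840 (minus strand).
Nrgn: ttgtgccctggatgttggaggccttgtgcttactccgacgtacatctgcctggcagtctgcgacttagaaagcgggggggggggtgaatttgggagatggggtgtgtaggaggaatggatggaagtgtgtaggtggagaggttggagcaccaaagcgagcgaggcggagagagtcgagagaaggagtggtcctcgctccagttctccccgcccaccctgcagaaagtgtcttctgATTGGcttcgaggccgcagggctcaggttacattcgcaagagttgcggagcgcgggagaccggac
Jaml: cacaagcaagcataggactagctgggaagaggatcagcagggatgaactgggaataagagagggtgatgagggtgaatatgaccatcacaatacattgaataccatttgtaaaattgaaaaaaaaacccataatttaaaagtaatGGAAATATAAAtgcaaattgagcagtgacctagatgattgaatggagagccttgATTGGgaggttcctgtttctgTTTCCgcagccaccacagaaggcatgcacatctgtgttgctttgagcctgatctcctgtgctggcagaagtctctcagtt
Erv3: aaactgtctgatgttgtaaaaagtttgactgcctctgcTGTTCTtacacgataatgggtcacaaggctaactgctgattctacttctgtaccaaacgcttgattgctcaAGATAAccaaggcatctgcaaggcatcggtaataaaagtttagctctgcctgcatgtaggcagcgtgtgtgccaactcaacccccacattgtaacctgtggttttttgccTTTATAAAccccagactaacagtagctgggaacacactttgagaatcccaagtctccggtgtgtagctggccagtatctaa
Sult1a1: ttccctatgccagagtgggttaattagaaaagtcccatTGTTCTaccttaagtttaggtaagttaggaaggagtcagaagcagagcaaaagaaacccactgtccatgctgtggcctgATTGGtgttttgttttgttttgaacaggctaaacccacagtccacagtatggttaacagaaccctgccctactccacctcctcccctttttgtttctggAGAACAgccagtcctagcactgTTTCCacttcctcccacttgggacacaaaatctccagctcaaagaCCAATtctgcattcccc

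The *Nrgn* window had a GC content of 59.3% and 17 CG dinucleotides, against medians of 52.7% and 7 over all 32851 windows. The *Jaml* window had 42.3% GC and 1 CG, the *Erv3* window 45% and 5, and the *Sult1a1* window 46.3% and 0. The windows of *Tmem132e* (72.3% GC, 31 CG) and *Pigz* (52.3%, 15 CG), whose starts were 223 and 190 bases from the nearest GENCODE start, are not printed. The windows thus ranged from no CG dinucleotide to more than 4 times the median of all windows.

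Both strands of the windows were searched for the letters AGATAA of factors of the GATA family, for the E-boxes with the letters CACGTG or with the letters CATGTG, for TGANTCA, which AP-1 binds, for the CRE letters TGACGTCA, and for TGACATCA. They were also searched for ACGTG, the core of hypoxia response elements and a part of the first E-box, for AGAACA of glucocorticoid response elements, for GGAAA, the core of NFAT sites, for the TATA box letters TATAAA, and for CCAAT. In *Erv3*, TATAAA lay at -29 to -24 from the start site and overlapped the same motif on the other strand, and AGATAA lay at -141 to -136; 13.6% and 11.2% of all windows hold these motifs. *Jaml* also held TATAAA, at -100 to -95, directly after a GGAAA motif. The letters CCAAT were found in *Nrgn*, *Jaml* and *Sult1a1* and in 37.4% of all windows, GGAAA in *Jaml* and *Sult1a1* and in 61.3%, and AGAACA in *Erv3* and *Sult1a1* and in 19.0%. *Tmem132e* was the single window with CACGTG (7.15% of all windows), which also holds the ACGTG core on both strands (19.6%). No motif was shared by more than 3 of the 6 windows, CATGTG, TGACATCA and the AP-1 and CRE motifs were in none (14.2%, 3.62%, 7.81% and 1.79% of all windows hold them), and the *Pigz* window held none of the letters searched for. A match is a stretch of letters and not a binding site.

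*Grp* (chromosome 18) was at 13.8, 27.7, 4.69 and 37.7 CPM in scrambled replicates 1 to 4, and at 4.99, 14.7, 2.39 and 18.3 CPM in *Zc3h12a* RNP replicates 1 to 4. Replicate 4 was highest and replicate 3 lowest with either RNP, and the groups overlapped, since replicate 2 after *Zc3h12a* RNP lay above scrambled replicates 1 and 3. The mean was 21.0 ± 14.6 CPM after scrambled and 10.1 ± 7.61 CPM after *Zc3h12a* RNP (SD, n = 4). Within pairs the difference of log2 CPM was -1.46, -0.91, -0.95 and -1.04, which leaves 36.1% to 53.1% of the scrambled level, and the fitted log2 fold change was -1.10 (SE 0.12). *Grp* is thus a gene whose level differed about 8-fold between replicates (8.05-fold among scrambled samples), while its pair differences ran from -1.46 to -0.91. These differences, and those of the other 6 genes, are what the genes were chosen by and are given without a test.

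*Nrgn* (chromosome 9, 37452275 to 37464689, minus strand, GRCm39) was at 151, 40.8, 32.7 and 82.1 CPM in scrambled replicates 1 to 4, and at 31.6, 16.2, 8.80 and 16.7 CPM in *Zc3h12a* RNP replicates 1 to 4. The replicates stood in the same order with either RNP, from 1 to 4, 2 and 3. The groups did not overlap, but the highest *Zc3h12a* RNP sample, replicate 1, was only just under the lowest scrambled sample, replicate 3. The differences within pairs were -2.25, -1.33, -1.89 and -2.29 on the log2 scale, so 20.9%, 39.6%, 26.9% and 20.4% of the scrambled level was left. The mean was 76.7 ± 54.1 CPM after scrambled and 18.3 ± 9.56 CPM after *Zc3h12a* RNP, with a fitted log2 fold change of -1.96 (SE 0.16). The counts behind these levels were 831 to 4764 and 214 to 911, so the spread between replicates was far above counting error.

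**Figure D1:**
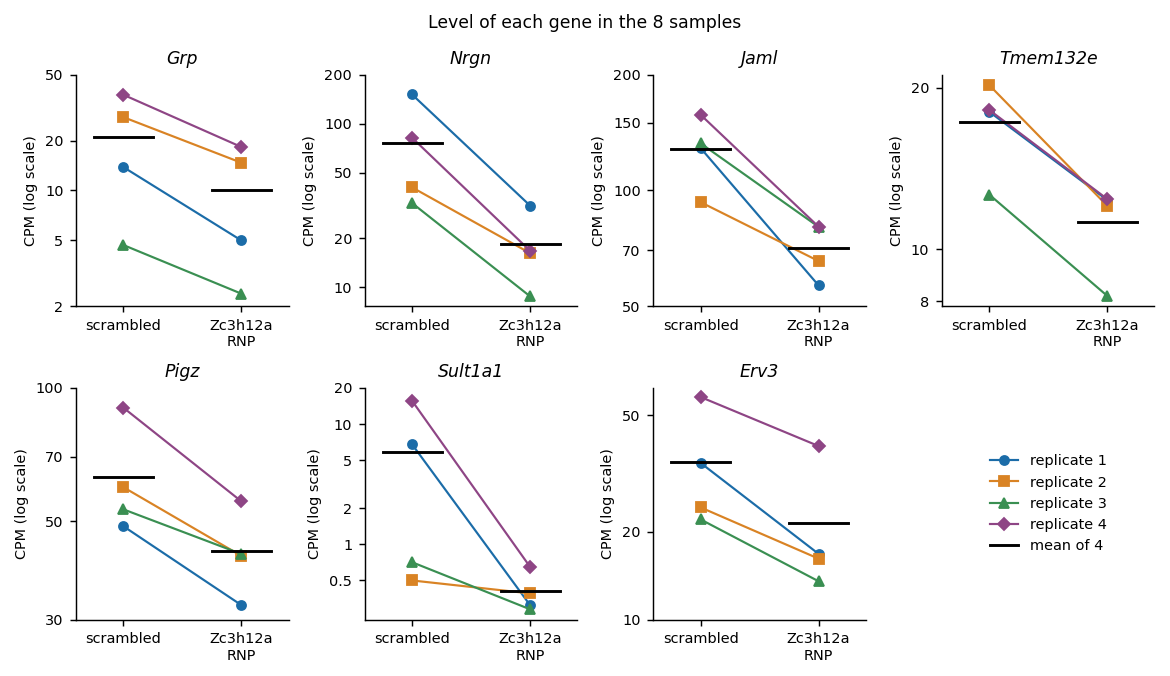
Levels of the 7 genes in CPM (vertical log axis) in the 4 scrambled and 4 *Zc3h12a* RNP samples; lines join samples of a replicate number and black bars are means of 4. Every line slopes down, which is how the genes were chosen, and the lines of *Grp*, *Nrgn* and *Erv3* lie far apart while *Sult1a1* has only 2 scrambled samples above 1 CPM.

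*Jaml* (chromosome 9, 44990469 to 45019832, plus strand) was at 129, 93.2, 133 and 157 CPM in scrambled replicates 1 to 4, and at 56.7, 65.6, 80.4 and 80.5 CPM in *Zc3h12a* RNP replicates 1 to 4. Here the groups were clearly apart, with the highest *Zc3h12a* RNP sample at 80.5 CPM and the lowest scrambled sample at 93.2 CPM. Pair 1 differed most (-1.18) and pair 2 least (-0.51), with -0.72 and -0.97 in pairs 3 and 4. The mean was 128 ± 26.4 CPM and 70.8 ± 11.7 CPM, and the fitted log2 fold change -0.85 (SE 0.12).

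*Tmem132e* (chromosome 11, 82278268 to 82338461, plus strand) was at 18.0, 20.2, 12.6 and 18.2 CPM in scrambled replicates 1 to 4, and at 12.3, 12.0, 8.18 and 12.4 CPM in *Zc3h12a* RNP replicates 1 to 4. Replicate 3 was lowest with either RNP, and the groups did not overlap by a narrow margin, between 12.4 and 12.6 CPM. Its pair differences were the most alike of the 7 genes, at -0.54, -0.74, -0.62 and -0.55, around a fitted log2 fold change of -0.62 (SE 0.09). In pair 4 both samples held 382 counts, so the difference there comes from the scaling to library size. The group means were 17.3 ± 3.24 and 11.2 ± 2.05 CPM (SD, n = 4).

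In normalized CPM, *Nrgn*, *Jaml* and *Tmem132e* were the 3 of 7 genes with every *Zc3h12a* RNP sample below every scrambled sample, as were 99 of all genes tested (0.663%), while 39 (0.261%) had every *Zc3h12a* RNP sample above every scrambled sample. By library totals alone, the groups of *Nrgn* and *Tmem132e* overlap. *Nrgn* held 911 of 28052362 counts in *Zc3h12a* RNP replicate 1 and 831 of 26008463 in scrambled replicate 3. *Tmem132e* held 382 of 28564062 in *Zc3h12a* RNP replicate 4 and 321 of 26008463 in scrambled replicate 3. By choice, all 7 were lower in all 4 pairs, as were 8.54% of the genes tested, and 1.08% were also below a log2 fold change of -0.5. Nothing about the 7 genes is read from these shares, since the same values chose them. In the order of log2 fold changes from the lowest, *Sult1a1* was the second and *Nrgn* the third of 14934 genes, *Grp* was at place 20, *Jaml* at 52, *Erv3* at 104, *Tmem132e* at 157 and *Pigz* at 235.

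*Pigz* (chromosome 16, 31752479 to 31764881, plus strand) was at 48.7, 59.7, 53.2 and 90.2 CPM in scrambled replicates 1 to 4, and at 32.4, 41.8, 42.2 and 55.4 CPM in *Zc3h12a* RNP replicates 1 to 4. Replicate 4 was highest and replicate 1 lowest with either RNP, and replicate 4 after *Zc3h12a* RNP exceeded scrambled replicates 1 and 3. The pair differences were -0.59, -0.51, -0.33 and -0.70, the fitted log2 fold change was -0.54 (SE 0.087), and the means were 62.9 ± 18.7 and 42.9 ± 9.49 CPM. *Pigz* had the smallest fitted difference of the 7 genes.

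*Sult1a1* (chromosome 7, 126271299 to 126275615, minus strand) was at 6.78, 0.50, 0.71 and 15.6 CPM in scrambled replicates 1 to 4, and at 0.31, 0.39, 0.29 and 0.65 CPM in *Zc3h12a* RNP replicates 1 to 4. Only scrambled replicates 1 and 4 were above 1 CPM, and replicate 4 after *Zc3h12a* RNP lay above scrambled replicate 2. The counts were 214, 15, 18 and 328 in scrambled samples and 9, 9, 7 and 20 in *Zc3h12a* RNP samples. The share of the scrambled level left was 4.60% in pair 1 and 4.16% in pair 4, with exact 95% counting intervals of 2.08% to 8.90% and 2.51% to 6.53%. In pair 2 it was 78.0% (30.1% to 190%) and in pair 3 40.6% (14.3% to 102%), so at these counts a lower level was not detectable in pairs 2 and 3. These intervals cover counting error only. The pair differences were -4.15, -0.31, -1.11 and -4.44, and the fitted log2 fold change of -2.83 (SE 0.85) moved between -3.72 and -2.05 when 1 replicate number was left out; it was -2.05 without replicate 4, and -2.06 without replicate 1. The means, 5.90 ± 7.10 and 0.41 ± 0.17 CPM, describe a group of unlike samples.

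*Sult1a1* also marks the edge of the choice, with a difference of only -0.31 in its pair 2. Just outside it was *Bcar1*, with 4 to 26 counts per sample, a log2 fold change of -0.87 and pair differences of -0.48, 0.00051, -0.49 and -1.97. It was the nearest of 89 genes that had at least the fitted difference of *Pigz* but were not lower in every pair.

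*Erv3* (chromosome 2, 131695598 to 131701667, minus strand) was at 34.3, 24.2, 22.0 and 57.7 CPM in scrambled replicates 1 to 4, and at 16.8, 16.2, 13.5 and 39.2 CPM in *Zc3h12a* RNP replicates 1 to 4. Replicate 4 stood above the rest with either RNP, and after *Zc3h12a* RNP it still exceeded scrambled replicates 1, 2 and 3. The pair differences were -1.03, -0.58, -0.70 and -0.56, with a fitted log2 fold change of -0.72 (SE 0.10) and means of 34.6 ± 16.3 and 21.4 ± 11.9 CPM. In pair 4 the raw counts were 1212 and 1208, so, as for *Tmem132e*, the difference in that pair comes from the scaling to library size. Retroviral genes can share reads with related copies, and how reads with several matches were counted is not given in the sources used here.

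**Figure D2:**
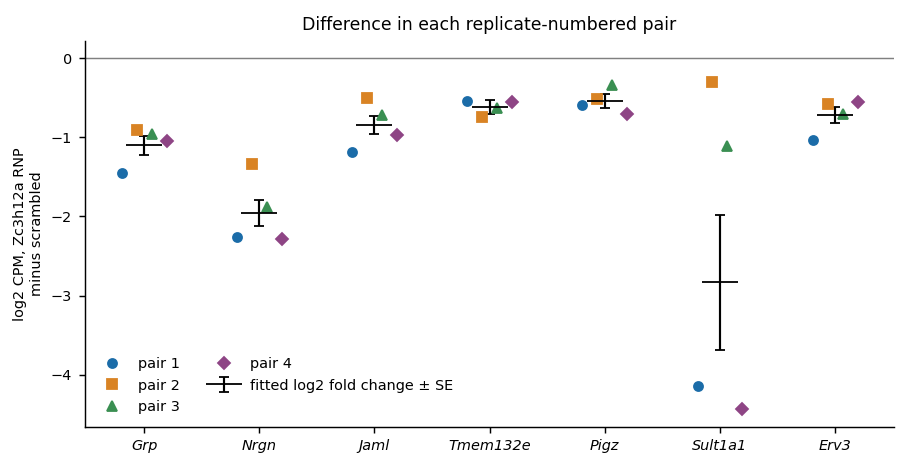
Difference of log2 CPM, *Zc3h12a* RNP minus scrambled, in each of the 4 replicate-numbered pairs (colored points) and the fitted log2 fold change ± SE (black) of each gene. The points of *Tmem132e* run from -0.74 to -0.54, while those of *Sult1a1* run from -4.44 to -0.31.

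Every gene was lower in all 4 pairs under TMM, RLE and upper-quartile scaling, under library totals, and with a prior count of 2 or 0.5. These are the counts the genes were chosen by, scaled anew, so this describes the choice and does not test it. The median difference over all genes tested moved with the scaling, to -0.12 in pair 2 with RLE, 0.13 in pair 2 with library totals and -0.14 in pair 4 with upper-quartile scaling, the last of which was chosen after seeing the data. The smallest difference under any of these was -0.20, for *Sult1a1* in pair 2 with library totals. *Pigz* came next, at -0.26 in pair 3 with library totals.

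Levels were also compared between replicate numbers, which is another contrast than the one the genes were chosen by. An F test of the replicate numbers in the same model passed an adjusted p of 0.05 for 5 of the 7 genes, against 28.0% of all genes tested and 45.5% of those with a mean log2 CPM from 3 to 7. *Grp* differed most, with its pair means 7.70-fold apart from replicate 4 to replicate 3 (adjusted p = 0.000676, edgeR). *Erv3* was highest in replicate 4 and lowest in replicate 3 (log2 range 1.46, adjusted p = 0.00238), and *Nrgn* highest in replicate 1 and lowest in replicate 3 (4.05-fold, adjusted p = 0.00381). *Pigz* (highest in 4, lowest in 1, log2 range 0.83, adjusted p = 0.0102) and *Tmem132e* (highest in 2, lowest in 3, log2 range 0.61, adjusted p = 0.0274) had smaller ranges. *Jaml* (log2 range 0.52, adjusted p = 0.127) and *Sult1a1* (log2 range 2.71, adjusted p = 0.167) did not pass. Genes chosen for being lower in all 4 pairs can have a small residual spread, which enters this F test, so the count of 5 is not free of the choice. *Grp*, *Jaml*, *Erv3*, *Pigz* and *Sult1a1* had their highest pair mean in replicate 4, *Nrgn* in replicate 1 and *Tmem132e* in replicate 2. Whether the replicate numbers stand for mice, cultures or processing cannot be told apart here.

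The replicate number took 81.2% of the variation of log2 CPM of *Grp* over the 8 samples, 69.6% of that of *Erv3* and 54.5% of that of *Pigz*. It took 39.4% for *Tmem132e*, 36.0% for *Nrgn*, 35.3% for *Sult1a1* and 18.4% for *Jaml*. Over all genes tested the median share was 69.7%. The part that neither replicate number nor RNP takes was at most 6.80% for 6 of the genes and 22.4% for *Sult1a1*, the gene with the fewest counts.

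**Figure D3:**
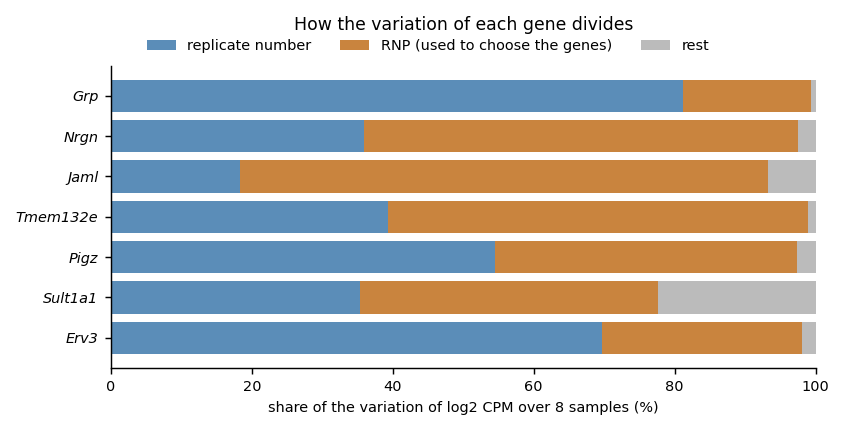
Share of the variation of log2 CPM over the 8 samples (%) that goes with the replicate number, with the RNP and with neither, for each gene. The replicate number takes 81.2% in *Grp* and 18.4% in *Jaml*; the RNP share is what the genes were chosen by.

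Per kilobase of exon, *Jaml* had the highest level in scrambled samples, at 41.0 ± 8.45 CPM per kb (SD, n = 4), percentile 94.6 of the genes tested. *Pigz* followed at 22.9 ± 6.81 and *Nrgn* at 13.6 ± 9.61 CPM per kb. *Erv3* was at 10.2 ± 4.83, *Grp* at 8.92 ± 6.22, *Tmem132e* at 2.32 ± 0.44 and *Sult1a1* at 1.97 ± 2.37 CPM per kb. *Nrgn*, *Erv3* and *Grp* did not differ beyond their spread, nor did *Tmem132e* and *Sult1a1*, *Pigz* was within the spread of *Nrgn*, and the mean ± SD ranges of *Grp* and *Tmem132e* just met. *Jaml* and *Pigz* were more than 1 SD apart, but the lowest *Jaml* sample (29.9 CPM per kb) lay below the highest *Pigz* sample (32.8 CPM per kb). After *Zc3h12a* RNP, *Nrgn* was at percentile 54.8 in place of 83.1 and *Sult1a1* at 7.85 in place of 45.5, while *Jaml* was at 90.3. With the longest transcript as the length in place of all exons joined, *Jaml* came to 51.7, *Nrgn* to 25.4 and *Pigz* to 25.3 CPM per kb, so *Nrgn* and *Pigz* changed places. *Nrgn* has 15 annotated transcripts.

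The levels of the 7 genes over the 8 samples resembled each other to different degrees. Pearson's r of log2 CPM was highest for *Nrgn* with *Tmem132e* (0.84), *Erv3* with *Sult1a1* (0.83) and *Erv3* with *Pigz* (0.82), and lowest for *Grp* with *Jaml* (0.35), *Nrgn* with *Pigz* (0.43) and *Nrgn* with *Grp* (0.51). All these pairs share libraries and the choice of genes that were lower after *Zc3h12a* RNP, which sets a floor under r, and no p is given. Among 9662 other genes with a mean log2 CPM above 2, those most like *Grp* were *Plod1* (r = 0.96), *Mamdc2* (0.95) and *Ids* (0.95), and those most like *Nrgn* were *Lat2* (0.95), *Cir1* (0.95) and *Wipi1* (0.94). *Erv3* went most closely with *Cd33* (0.99), *Ube2h* (0.98) and *Frg2f1* (0.96), *Pigz* with *Rab13* (0.96), *Gpr162* (0.95) and *Kank2* (0.94), and *Sult1a1* with *Mfhas1* (0.98), *Asah2* (0.96) and *Idnk* (0.95). *Jaml* resembled *Gm6093* (0.94), *Mgst2* (0.93) and *Per1* (0.92), and *Tmem132e* resembled *Stim1* (0.95), *Mylip* (0.92) and *Tcn2* (0.92). These genes were picked by likeness over samples that hold the difference the 7 genes were chosen by, so lower levels among them are partly built in. Their log2 fold changes ran from -0.14 (*Plod1*, against -1.10 for *Grp*) to -1.32 (*Gm6093*, against -0.85 for *Jaml*). *Gm6093* was at 559 CPM in scrambled and 225 CPM in *Zc3h12a* RNP samples (log2 fold change -1.32), *Per1*, a gene of the circadian clock, at 327 and 195 CPM (-0.72), and *Mylip* at 91.8 and 60.6 CPM (-0.61). With Spearman's rho in place of Pearson's r, 9 of the 21 genes were again among the 3 most alike.

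Relatives of the 7 genes by family or pathway were looked up to see whether they were lower as well, and 0 were called in either direction in any of 8 lists by edgeR (0% of all genes tested were called in each direction). At an unadjusted p at or under 0.05, 1 relative was lower (*Cpe*) and 2 were higher, and DESeq2 and limma-trend called 0. The share of all genes at that unadjusted p is not given here, so nothing is read from these counts. For reading the list medians, the median log2 fold change was 0.038 over all genes tested and 0.30 over the 5266 of them with a mean log2 CPM below 2.

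The list around neurogranin held calmodulin and PKC genes, genes of calmodulin-regulated kinases and phosphatase subunits, and small calmodulin-binding proteins. Of its 27 genes, 22 were tested, 12 below and 10 above 0, with a median log2 fold change of -0.0079. *Prkcb*, a PKC isoform, was at 701 ± 73.7 and 698 ± 70.9 CPM in scrambled and *Zc3h12a* RNP samples, and *Calm2*, a calmodulin gene, at 562 ± 118 and 523 ± 55.8 CPM. *Prkch* (0.88, SE 0.94) and *Pcp4* (0.74, SE 0.83) had the largest fitted differences on few counts. Of the 22 tested genes of this list, 0 were lower in all 4 pairs, as were 8.54% of all genes tested.

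The other mammalian bombesin-like peptide gene, *Nmb*, which encodes neuromedin B, was at 30.7 ± 8.98 and 24.4 ± 6.58 CPM, with a log2 fold change of -0.31 (SE 0.16) and lower in 3 of 4 pairs (unadjusted p = 0.0902, adjusted p = 0.903, edgeR). Its receptor gene *Nmbr* was near 1 CPM with either RNP, *Brs3* had 1 to 11 counts and was not tested, and *Grpr*, the receptor of gastrin-releasing peptide, was not among the symbols counted. Of 18 other neuropeptide and processing genes, 14 were counted and 5 tested, with a median of 0.39. *Cpe*, a carboxypeptidase that trims peptide hormone precursors, was at 4.01 ± 1.73 and 1.94 ± 0.54 CPM, lower in 4 of 4 pairs and by -0.96 on the log2 scale (SE 0.37, unadjusted p = 0.0338, adjusted p = 0.751). *Pam*, which amidates the ends of peptides, was at 3.37 ± 2.27 and 4.93 ± 1.15 CPM (0.78, SE 0.48). *Cpe* was the 1 relative in any list that was lower in all 4 pairs, as were 8.54% of all genes tested.

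Of 13 genes of the junctional adhesion and CTX families, to which *Jaml* is related, 10 were tested, 2 below and 8 above 0 (median 0.48). *Mpzl2*, an adhesion gene, was at 6.42 ± 1.68 and 4.80 ± 1.52 CPM (-0.42, SE 0.22), and *F11r*, the gene of junctional adhesion molecule A, at 2.72 ± 2.22 and 3.15 ± 0.99 CPM (0.56, SE 0.62). *Cxadr*, the binding partner of the *Jaml* product, had 0 to 23 counts per sample, and *Igsf11* 2 to 37. Apart from *Mpzl2*, at 95 to 233 counts, the relatives named here thus rest on few counts, and their differences have wide errors. The relatives of *Tmem132e* were sparse too, with *Tmem132b* at 8 to 64 counts (log2 fold change 0.57) and *Tmem132c* at 3 to 57 counts (0.57), and *Tmem132a* and *Tmem132d* not tested.

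All 29 GPI anchor genes listed beside *Pigz* were tested, 10 below and 19 above 0, with a median log2 fold change of 0.059 and a range from -0.33 to 0.61. None was lower in all 4 pairs, as were 8.54% of all genes tested, and 3 were higher in all 4 (*Pigg*, *Pign* and *Pgap2*). The share of all genes higher in all 4 pairs is not given here, so nothing is read from these 3. *Pigt*, a subunit of the enzyme that attaches the anchor, was at 87.5 ± 17.5 and 89.3 ± 20.2 CPM (0.028, SE 0.11). *Pigm*, which adds the first mannose, was at 77.8 ± 11.8 and 70.5 ± 11.1 CPM (-0.14, SE 0.082). *Gpaa1*, a subunit of the same attaching enzyme, was at 23.2 ± 8.50 and 28.6 ± 3.22 CPM (0.36, SE 0.18), and *Pgap1* was the highest on 6 to 68 counts (0.61, SE 0.74). The median of the 29 genes was close to that of all genes tested (0.038).

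Of 17 genes of cytosolic sulfotransferases and PAPS supply, 10 were tested, with a median of 0.11. *Papss2*, which makes the sulfate donor PAPS, was at 1181 ± 224 and 1135 ± 184 CPM (log2 fold change -0.056, SE 0.093), and *Bpnt2*, a phosphatase for the product left when sulfate is transferred, at 100.4 ± 35.1 and 92.3 ± 27.3 CPM (-0.10, SE 0.079). The sulfotransferases *Sult1d1* (10 to 63 counts, log2 fold change 0.77, SE 0.73) and *Sult2b1* (6 to 43 counts, 0.35, SE 0.66) rest on few counts. The genes of PAPS supply named here were thus measured well and lay near 0, while a difference of the other transferases could not be told from their spread.

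All 13 genes that silence retroviral elements, listed beside *Erv3*, were tested, 5 below and 8 above 0 (median 0.068). *Dnmt1*, the maintenance DNA methyltransferase, was at 151 ± 31.8 and 193 ± 30.9 CPM, higher in 4 of 4 pairs and by 0.37 on the log2 scale (SE 0.13, unadjusted p = 0.0220, adjusted p = 0.686, edgeR). *Uhrf1*, which brings Dnmt1 to half-methylated DNA, was at 59.5 ± 20.4 and 79.6 ± 13.3 CPM (0.47, SE 0.21). *Atrx*, a chromatin remodeler, was at 314 ± 31.6 and 294 ± 28.9 CPM and *Ehmt2*, a histone methyltransferase, at 181 ± 7.66 and 168 ± 17.8 CPM (-0.11, SE 0.083). Neither passed the test. Without replicate 2, *Gpaa1* (0.63, adjusted p = 0.0334) and *Uhrf1* (0.74, adjusted p = 0.00562) were called higher, the 2 relatives called under any alternative.

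**Figure D4:**
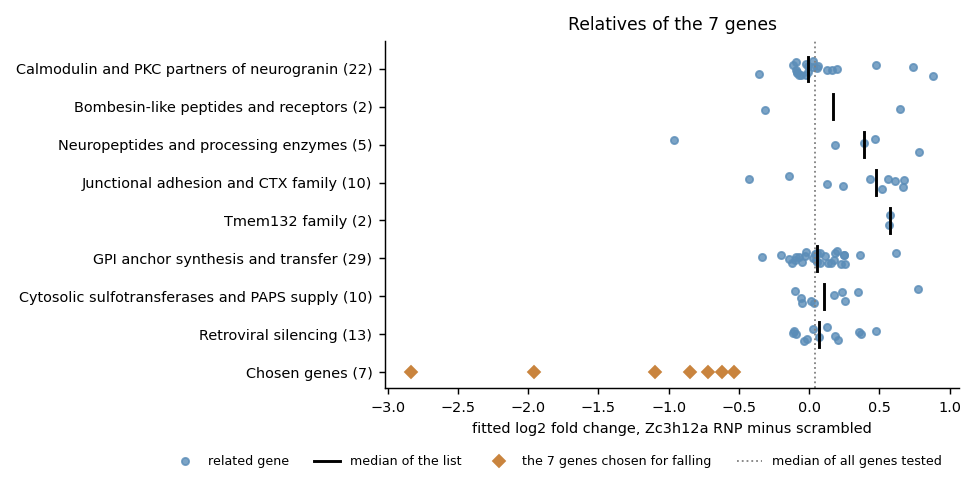
Fitted log2 fold change, *Zc3h12a* RNP minus scrambled, of each tested relative (points, with list medians as bars and the number tested in brackets) and of the 7 chosen genes (diamonds). The list medians lie between -0.0079 and 0.57, and the median of all genes tested is at 0.038.

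Genes next to the 7 genes were compared as well, since reads of overlapping genes could be divided by the counting. Of 16 tested neighbors and overlapping genes, 0 were called in either direction by edgeR, DESeq2 or limma-trend, 1 passed an unadjusted p of 0.05, and the median log2 fold change was 0.0070. That 1 was *Prnp*, the prion protein gene, 23.3 kb from *Erv3*, at 4701 ± 862 and 4018 ± 584 CPM (-0.22, SE 0.076, unadjusted p = 0.0214, adjusted p = 0.686). *Prnp* was the single neighbor lower in 4 of 4 pairs, as were 8.54% of all genes tested, and no neighbor was higher in all 4. The share of all genes at an unadjusted p of 0.05 is not given here, so nothing is read from the 1 neighbor that passed it.

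On the other sides, *Sgf29*, which overlaps *Sult1a1* on the opposite strand, was at 20.1 ± 2.79 and 20.1 ± 2.02 CPM (0.0046, SE 0.081), while *Nupr1* was at 8.71 ± 4.21 and 7.0 ± 2.91 CPM (-0.29, SE 0.16) and *Slx1b* at -0.097 (SE 0.17). *Ncbp2*, 2216 bases from *Pigz*, was at 68.4 ± 10.7 and 68.6 ± 7.29 CPM (0.013, SE 0.097), and *Dlg1* at 0.0095 (SE 0.072). *Siae*, 2304 bases from *Nrgn*, was at 11 ± 3.1 and 9.58 ± 0.65 CPM (-0.17, SE 0.17), *Msantd2* at 0.11 (SE 0.25), and the overlapping *Vsig2* had at most 1 count per sample. None of these neighbors was lower in all 4 pairs. Beside *Jaml*, the overlapping *Gm10684* (9 to 75 counts, log2 fold change 0.80, SE 0.77), *Mpzl3* (0.43, SE 0.53) and *Scn2b* (0.53, SE 0.67) were sparse. *Sec11c* beside *Grp* was at 299 ± 83.6 and 299.5 ± 45.8 CPM (0.036, SE 0.10), *Smox* beside *Erv3* at -0.084 (SE 0.11), and *Rax*, *Ccl1* and *Cct6b*, at less than 1 CPM, had SEs of 0.51 to 1.12. For these last 3 a difference of the size of their chosen neighbor was not detectable at this depth.

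**Figure D5:**
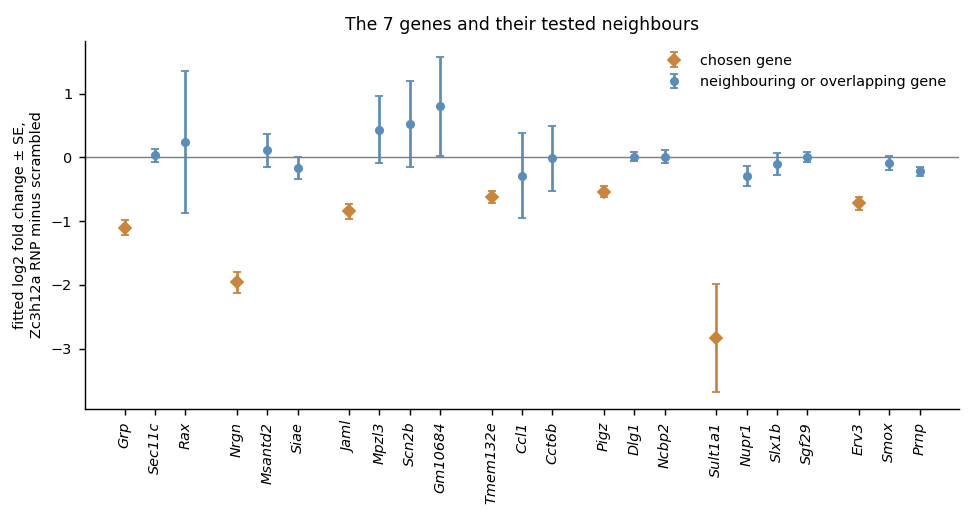
Fitted log2 fold change ± SE, *Zc3h12a* RNP minus scrambled, of each chosen gene (diamonds) and of its tested neighbors and overlapping genes (circles). The neighbors run from -0.29 (*Nupr1*) to 0.80 (*Gm10684*), and those with few counts have wide error bars.

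Because some of the 7 genes are known from other cell types, markers of such cells were summed in each sample. Of 10 neutrophil markers 5 were counted, adding up to 0.063 to 0.33 CPM in scrambled and 0.12 to 0.39 CPM in *Zc3h12a* RNP samples, with 83.6% from *Mpo*. All 9 monocyte and macrophage markers together reached 3.20 to 7.57 and 4.27 to 7.61 CPM, and 7 of 8 T and NK cell markers 0.70 to 5.90 and 2.77 to 5.22 CPM, with *Cd8a* at 0 in all samples. All 7 neuron markers together were at 1.37 to 10.8 CPM and 3.74 to 7.44 CPM, lower in 2 of 4 pairs. The sums of the neutrophil, monocyte, T and NK cell and neuron markers thus stayed at or under 10.8 CPM in every sample.

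For megakaryocytes and platelets, in which *Nrgn* is also known to be expressed, 9 of 10 markers were counted and their sum was 2150 to 2516 CPM in scrambled and 1788 to 2363 CPM in *Zc3h12a* RNP samples. This sum was lower in 4 of 4 pairs, as were 8.54% of single genes tested, and *Itga2b* made up 73.2% of it. The 5 of these markers that were tested had a median log2 fold change of 0.0072, against 0.038 over all genes tested. The 6 B cell markers added up to 3.73 to 13.9 and 2.84 to 5.32 CPM, again lower in 4 of 4 pairs, with 71.9% from *Ighm*. Basophil markers (4 of 5 counted, 98.7% *Cd200r3*) were at 501 to 542 and 445 to 511 CPM, and eosinophil markers (3 of 6 counted) at 2.28 to 6.09 and 2.04 to 4.32 CPM, each lower in 3 of 4 pairs. Which cells the *Itga2b* and *Cd200r3* reads came from cannot be told in bulk RNA, so these sums do not measure how many such cells were present. None of the marker genes was called by edgeR, and the part of these cell types in the differences of the 7 genes was not tested.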

How the data were processed

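Poly(A) RNA of 8 BMMC samples (4 scrambled, 4 *Zc3h12a* RNP) was sequenced. The authors used HISAT2 2.2.1 and GRCm39 for alignment and featureCounts 2.0.1 for counting, and deposited raw counts per gene (tools per the submitters' processing notes, which also name FastQC 0.11.9). The study's methods name a batch correction with removeBatchEffect; the deposited counts are whole numbers, the batch is not named, and no batch beside the replicate number was fitted here. The strand setting and the handling of reads with several matches are not given in the sources used here. Totals per sample were 19610240 to 33986762 counts.

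The counts were filtered with filterByExpr, TMM-normalized and tested by edgeR 4.0.16 (quasi-likelihood F test, R 4.3.3) in a model of replicate number and RNP; p-values were adjusted by Benjamini-Hochberg over 14934 genes. SEs are the size of a log2 fold change over the root of its F statistic, and log2 CPM took a prior count of 2. The labels do not tie a replicate number to a mouse. The members and lists were chosen with earlier results of these data known. Named genes are the 7 genes, *Zc3h12a*, their nearest tested neighbors and overlapping genes, the 3 genes most correlated with each (mean log2 CPM above 2), of each list every gene called, the 2 most abundant and the 2 with the largest log2 fold change, and the gene that most narrowly missed being lower in all 4 pairs. *Pigg*, *Pign* and *Pgap2* were picked with their values known.

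The alternatives tried were DESeq2 1.42.0, limma-trend (limma 3.58.1), RLE or library totals, no filter, at least 10 counts in every sample, no block, and leaving out each replicate number. Pairing rests on the series' design, with both RNPs given to cells of 4 mice. Samples of 1 number deviated from their group means together, with correlations of 0.60, 0.075, 0.62 and 0.041 over all genes tested, where differently numbered samples reached 0.40, above pairs 2 and 4, and of 0.76, 0.72, 0.73 and 0.72 over 9668 genes with a mean log2 CPM above 2, where differently numbered samples reached 0.14. Samples of a group differed beyond sampling noise, with a chi-square per degree of freedom of at least 53.6. The scripts were tested on simulated counts. Positions are those of GENCODE for GRCm39, which held 22601 of 24059 symbols and 115 more by an older symbol. Plots used matplotlib 3.10.9 (Python 3.11.15).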

Additional observations from a re-analysis of the deposited data

Results flagged for a closer look

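In 7 of 48 groups of 4 samples examined, 1 sample lay far from the other 3 by Dixon's ratio, the gap to the nearest sample divided by the group's range; chance gives about 1 in 20, or 2.4. *Erv3* after *Zc3h12a* RNP was at 39.2 CPM in replicate 4 and at 13.5 to 16.8 CPM in the others (ratio 0.873). *Tmem132e* after *Zc3h12a* RNP was at 8.18 CPM in replicate 3 and at 12.0 to 12.4 CPM in the others (ratio 0.916). *Zc3h12a* itself was at 24.9 CPM in scrambled replicate 1 and at 37.1 to 39.3 CPM in the others (ratio 0.846). Among the neighbors, *Siae* was at 8.60 CPM in *Zc3h12a* RNP replicate 1 and 9.87 to 9.97 CPM in the others (ratio 0.928), and *Ccl1* at 0.24 CPM in *Zc3h12a* RNP replicate 1 and 0.45 to 0.49 CPM in the others (ratio 0.845). *Dlg1* was at 86.7 CPM in *Zc3h12a* RNP replicate 2 and 67.6 to 70.2 CPM in the others (ratio 0.867), and *Nupr1* at 15.0 CPM in scrambled replicate 3 and 6.36 to 7.04 CPM in the others (ratio 0.922). For *Erv3*, *Tmem132e* and *Zc3h12a*, the same-numbered sample of the other RNP was at the same end of its group, at 57.7, 12.6 and 26.8 CPM.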

How the results depend on the processing

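The fitted differences of the 7 genes between the RNPs were below 0 in all 76 combinations of gene and alternative. Genes chosen for being lower in every pair give this result in refits of the same samples, so it is no support for the differences. Of the 76, 75 moved by less than the spread between pairs, and *Tmem132e* came to -0.51 without replicate 2. *Sult1a1* could not be fitted with at least 10 counts in every sample. The number of genes called between the RNPs in the whole table, 0 by edgeR, was 58 with DESeq2, 1 with limma-trend, 1 with RLE, 40 with no filter on low counts, 3 with at least 10 counts in every sample, and from 0 to 137 when 1 replicate number was left out (137 without replicate 2, of which 57 lower, and 2 without replicate 4). Without the replicate block it was again 0, so the unpaired fit changed no call. Relatives called were 0 to 2 when 1 replicate number was left out, and 0 under all other alternatives, and neighbors were called 0 times under any. The cause of these changes was not tested.

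Genes differing between replicate numbers, 4181, were 2364 with RLE and 1443 to 2878 with 1 replicate number left out (1443 without replicate 1, 2432 without replicate 2, 1483 without replicate 3), where fewer samples are compared. Of the 7 genes, 5 passed that test, and 3 to 5 did with 1 replicate number left out (3 without replicate 1 and 3 without replicate 4). *Tmem132e* was the least stable of the 5, with an adjusted p of 0.155 by DESeq2, 0.0510 by limma-trend, 0.0721 with RLE, 0.123 with no filter and 0.997 without replicate 3. *Jaml* passed by DESeq2 (0.0216) and with at least 10 counts in every sample (0.0347), and *Sult1a1* by DESeq2 (0.00563), with no filter (0.00121) and without replicate 2 (2.1e-06). This test has no value without the block. Depth limits *Sult1a1*, at 7 to 20 counts after *Zc3h12a* RNP, and the sparse relatives and neighbors.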
